A study of Saccharomyces cerevisiae with 2 samples.

Results

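The large subunit of the yeast ribosome is built from ribosomal RNA and a set of proteins that are numbered in the order of their gene names. The data here concern the 39 genes RPL1A to RPL21B, which encode the first 21 of these proteins, out of the 6692 genes counted. They were chosen by name alone, as the genes of this numbered series from RPL1 to RPL21, and all 39 had a row in both count files. Of the 21 proteins, 18 are encoded by a pair of genes, called A and B, and 3 (Rpl3, Rpl5 and Rpl10) by a single gene. The question asked of them is descriptive: how high each gene stood, how a pair divides its RNA between its copies, and whether a pair together reached the level of a single-copy gene.

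RNA came from 2 libraries of the budding yeast Saccharomyces cerevisiae, strain yJL59a, which are replicates of 1 group with no other group beside it. Cells grew in synthetic medium with methionine, were washed, and were then held without methionine, a shift that activates the sulfur genes under Met4 and that both libraries share. The genotype label reads MATa, with the alleles ade2-1, ura3-1 and trp1-1 and the leu2 and his3 alleles of the W303 background, in genes for adenine, uracil, tryptophan, leucine and histidine synthesis, and with can1-100 in the arginine permease gene. It also gives 2 reporters under the MET3 promoter, mCherry with URA3 at CDC20 and GFP with KanMX at CWC23. The replicates held 34052011 and 35367508 counts, and mRNA was captured on beads before sequencing, so that a level is a share of captured mRNA. In such bulk samples fewer transcripts per cell and fewer cells transcribing a gene cannot be told apart. The mating-type genes go against the label: the 7 a-specific genes checked stood between 3.92 and 12.0 FPKM, and the 4 alpha-specific genes between 229.9 and 2401 FPKM. Both are called here libraries labelled MATa, and whether the ribosomal protein genes differ with mating type was not tested.

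Ribosomal proteins are needed in nearly equal numbers, since each ribosome holds 1 copy of each of these proteins, and a growing yeast cell spends a large part of its mRNA on them. Most yeast ribosomal protein genes are present as pairs that date from an ancient duplication of the whole genome, and the proteins of a pair are identical or nearly so. Their transcription depends on the DNA-binding factor Rap1 at the promoter, with the cofactors Fhl1, Ifh1 and Sfp1 responding to nutrients through the kinases TOR and Sch9. Free ribosomal proteins tend to aggregate and are degraded, and some have a dedicated chaperone that binds them as they are made.

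Levels are given as FPKM, computed here as the count per kilobase of coding sequence over the library total, on the usual scale. Each value is the mean ± SD of the replicates (n = 2) or is given for replicate 1 and then replicate 2. With 1 group no test between conditions exists, so every statement below is a description of these libraries. A difference is called larger than the replicate spread only where the values of both replicates lie apart.

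The copies of a pair are so alike that part of their reads could come from either gene, and the reads here, sequenced in pairs, were only 50 bases long. This matters for the level and is visible in the sequences themselves. The RPL1, RPL7 and RPL15 pairs are shown because RPL1 has the most alike copies and RPL7 and RPL15 are the most unevenly divided of the pairs described here. For each copy the same 150 bases of the coding sequence are given from the R64 assembly, 5′ to 3′ on the coding strand, with the bases that differ between the copies in capitals. RPL1A and RPL1B are shown from the start codon (chrXVI:135790-135939, plus strand, and chrVII:254641-254790, plus strand), RPL7A and RPL7B from coding base 577 (chrVII:364344-364493, minus strand, and chrXVI:174544-174693, plus strand), and RPL15A and RPL15B from coding base 454 (chrXII:201988-202137 and chrXIII:509746-509895, both minus strand).
RPL1A: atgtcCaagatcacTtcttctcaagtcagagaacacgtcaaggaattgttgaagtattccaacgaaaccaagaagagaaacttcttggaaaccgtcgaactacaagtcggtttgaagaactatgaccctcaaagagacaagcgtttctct
RPL1B: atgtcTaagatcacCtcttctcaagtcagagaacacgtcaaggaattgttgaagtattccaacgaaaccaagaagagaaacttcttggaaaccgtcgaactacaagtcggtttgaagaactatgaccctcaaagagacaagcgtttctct
RPL7A: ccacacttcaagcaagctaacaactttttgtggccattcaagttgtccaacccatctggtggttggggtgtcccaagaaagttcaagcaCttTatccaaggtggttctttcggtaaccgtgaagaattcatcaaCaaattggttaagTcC
RPL7B: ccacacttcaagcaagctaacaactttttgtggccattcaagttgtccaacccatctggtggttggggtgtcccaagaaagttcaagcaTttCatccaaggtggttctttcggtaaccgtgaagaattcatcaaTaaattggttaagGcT
RPL15A: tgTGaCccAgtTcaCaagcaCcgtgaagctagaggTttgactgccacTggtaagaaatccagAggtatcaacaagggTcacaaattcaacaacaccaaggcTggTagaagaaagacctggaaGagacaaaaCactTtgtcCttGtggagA
RPL15B: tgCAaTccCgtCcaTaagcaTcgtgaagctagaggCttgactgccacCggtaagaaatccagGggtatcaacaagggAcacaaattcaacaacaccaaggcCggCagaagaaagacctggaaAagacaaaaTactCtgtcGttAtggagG
The RPL1 copies differ at 2 of these 150 bases, the RPL7 copies at 5 and the RPL15 copies at 19. In the RPL1 stretch no base after position 15 differs, so a 50-base read from there matches both genes equally.

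Over whole coding sequences, identity between copies ran from 86.5% for RPL16 to 99.4% for RPL1, which has 4 mismatches in 654 bases. The proteins of 6 pairs, Rpl1, Rpl2, Rpl12, Rpl19 and Rpl20 among them, are identical. The near-identical copies were marked by the share of 50-base windows of the coding sequence that occur again elsewhere in the genome. A mate outside such a window can still place a pair of reads, while windows that differ at few bases are left out. The share is thus a guide to what could be ambiguous and not a limit on it. It was 81.0% for RPL1, 72.7% for RPL4, 60.9% for RPL11, 57.0% for RPL7, 43.2% for RPL14 and 28.5% for RPL2. The share was at most 15.2% for the other pairs and 0% for RPL3, RPL5, RPL6 and RPL10. Levels of the 6 pairs above 20% are uncertain, since how reads with several matches were counted is not stated. Within each of these pairs the copies have the same number of windows found once. If ambiguous reads were dropped, the sum of a pair would be lowered and its ratio left as it is. If they were placed on either copy or counted for both, the ratio could change as well, which was not tested.

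All 39 genes stood above the median of all annotated genes, 45.9 FPKM, and together they took 4.00% of the counts of replicate 1 (95% Wilson interval 3.998% to 4.011%) and 3.81% of those of replicate 2 (3.800% to 3.812%). Their median was 1327.6 ± 29.9 FPKM, and the gene at the median was RPL4A in both libraries. Of the 39 genes 27 had a mean of at least 1000 FPKM, a level reached by 3.63% of the 6007 genes with a coding length. Among all genes ranked by FPKM, 10 of the 39 were in the first 100, 33 in the first 300 and 36 in the first 500. Only 4 genes lay under 500 FPKM, RPL7B, RPL12A and RPL15B among them. All 4 are members of pairs, as are 36 of the 39 genes. Counts per gene ran from 1855 for RPL7B to 124727 for RPL3 in replicate 1, so counting error is small beside the differences between genes, and it is the only error that intervals cover.

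**Figure D1:**
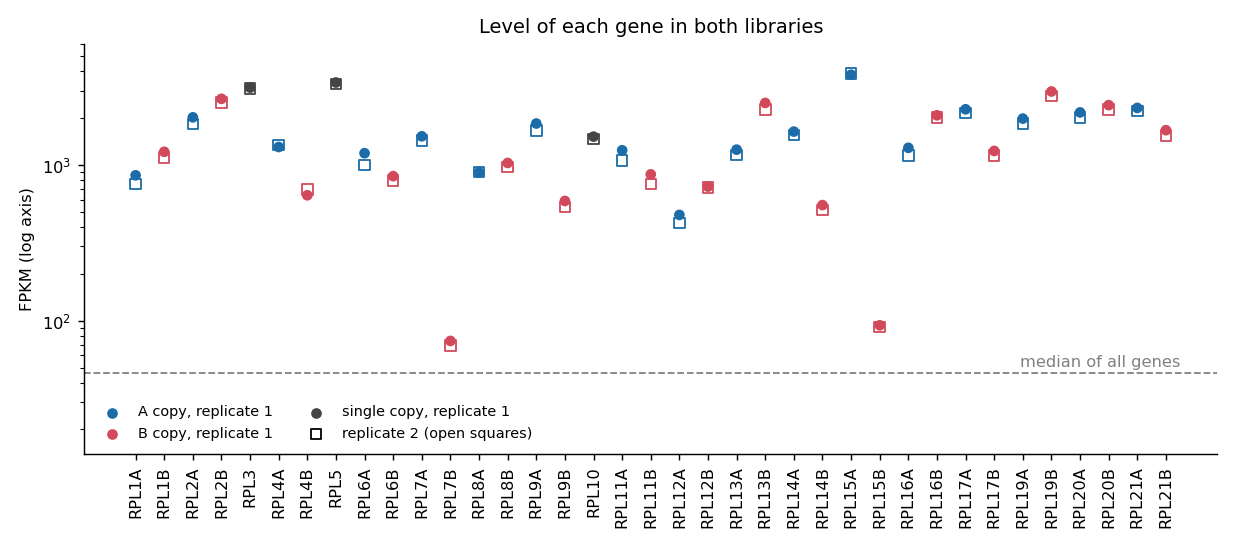
FPKM of the genes on a log axis, with filled circles for replicate 1 and open squares for replicate 2, coloured by A copy, B copy or single copy; the dashed line is the median of all genes at 45.9 FPKM. The genes spread from RPL7B at 71.7 ± 3.47 FPKM to RPL15A at 3846 ± 58.5 FPKM, while the symbols of both replicates lie close together.

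The single-copy genes were high as single genes go. RPL3 (YOR063W, chromosome XV, 444686 to 445849) encodes a protein that joins the large subunit early and lies close to the peptidyl transferase centre. It stood at 3147 and 3099 FPKM, from 124727 and 127577 counts. RPL5 (YPL131W, chromosome XVI, 303121 to 304014), whose protein binds 5S rRNA, stood at 3393 and 3309.6 FPKM. Both genes were above every duplicated copy but RPL15A, and their replicate values do not overlap each other. RPL10 (YLR075W, chromosome XII, 282927 to 283592) encodes a protein that is added to the subunit last, in the cytoplasm, and it stood at 1524 and 1471 FPKM, well below RPL3 and RPL5 in each library. Only 38.7% of the RPL10 coding sequence and 25.8% of that of RPL3 is free of other reading frames of at least 100 codons, where counts may be lost or gained, and RPL5 has no such overlap. The part of these overlaps in the levels was not tested.

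The median of the 36 duplicated copies was 1214 ± 83.6 FPKM, and that of the 3 single-copy genes 3123 ± 33.8 FPKM. Of the 36 copies 1 lay above the median of the single-copy genes and 15 lay above RPL10, the lowest of them. Summed over both copies, the 18 pairs had a median of 2635 ± 142 FPKM, which is 0.844 ± 0.0365 of the single-copy median. The sums ran from 1174 FPKM for RPL12 to 4798 FPKM for RPL19. Of the 18 sums 10 lay within the range of the 3 single-copy genes, 7 above it and 1 below it. Thus single copies of a pair were mostly lower than single-copy genes, and their sums were spread around them. The 6 pairs with near-identical copies had a median sum of 1986 FPKM against 3277 FPKM for the other 15 proteins, and 1 of the 6 (RPL2) lay above the median of all 21 proteins. Without those 6 pairs, a choice made after seeing the data, the sums had a median of 3344 FPKM. The ratio of this median to the single-copy median was 1.07, so the side of 1 changed with those pairs. The single-copy median is the level of RPL3, and the 3344 FPKM lay below RPL5 at 3351 FPKM. The side of 1 thus also depends on the gene taken as reference.

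The levels were more alike over proteins than over genes. The coefficient of variation was 59.4% and 61.5% over the 39 genes in replicates 1 and 2, and 38.4% and 38.7% over the 21 proteins. The highest gene stood 51.3 and 56.2 times above the lowest, and the highest protein 4.11 and 4.06 times above the lowest. Of the 21 proteins 13 lay within 1.5-fold of their median, 2949.5 ± 119 FPKM. Over the 10 proteins with neither near-identical copies nor much overlap with other frames (RPL5, RPL6, RPL9, RPL13, RPL16, RPL17, RPL19, RPL20 and RPL21 among them), the sums ran from 1919 to 4798 FPKM. Their coefficient of variation was 25.8%, against 46.1% over their single genes. Summing copies lowers such variation by itself, and no comparison with other pairings was made. With other denominators this order of genes and proteins kept its direction. The values over proteins rose to 51.0% per window found once and to 64.5% per coding base free of other frames. Here and below, both divide all counts of a gene by the smaller length, as if no read from the excluded part had been counted. Whether that holds was not tested.

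**Figure D2:**
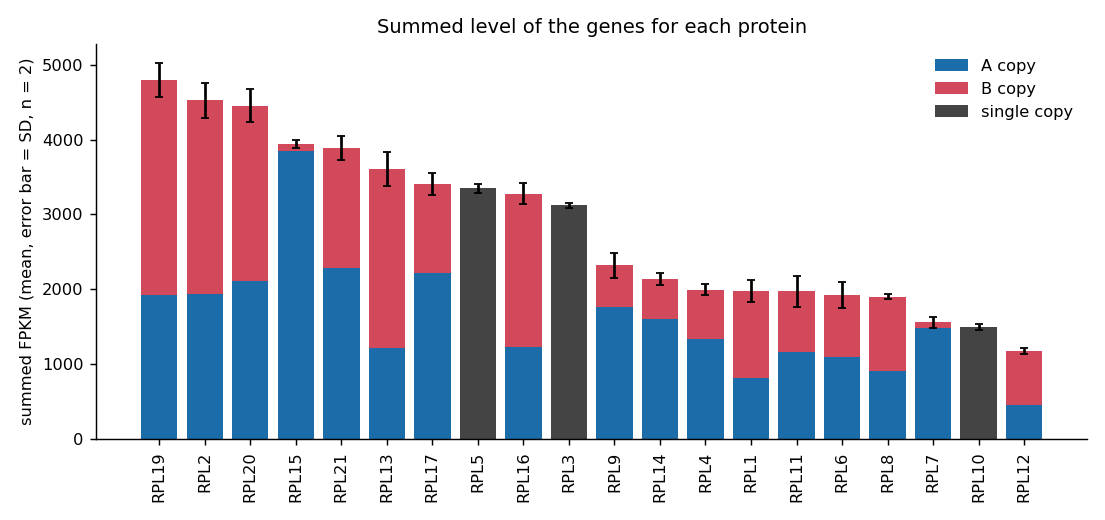
Summed FPKM of the genes for each protein shown, from highest to lowest, as stacked bars of the A copy and the B copy or a single bar for single-copy genes; error bars are the SD of the summed level (n = 2). The sums fall from 4798 FPKM for RPL19 to 1174 FPKM for RPL12, with RPL5 and RPL3 in the middle and RPL10 next to last.

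In the order of the sums, 11 of the 20 neighbouring pairs of proteins overlapped in their replicate values, so that their order is not settled. The values of neighbours lay apart below RPL20, RPL21, RPL16, RPL9, RPL14, RPL8 and RPL10, among others. RPL9 summed to 2321 ± 166 FPKM and RPL14 to 2138 ± 81.2 FPKM. The next paragraphs take the proteins by where they sit in the ribosome.

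Several of these proteins have relatives in bacteria and form the conserved core of the subunit. Rpl2, one of the most conserved, lies near the peptidyl transferase centre. RPL2A (YFR031C-A) stood at 2027 and 1835 FPKM and RPL2B (YIL018W, chromosome IX, 316768 to 317932) at 2666 and 2528 FPKM. The replicate values of the copies do not overlap, and their sum of 4528 ± 233 FPKM was second among the 21 proteins, although 28.5% of windows are shared. Rpl4 and Rpl17 both line the tunnel through which the new peptide leaves. RPL4A (YBR031W) stood at 1306 and 1349 FPKM and RPL4B (YDR012W) at 639.6 and 696 FPKM, the only pair of which both copies were higher in replicate 2. RPL17A (YKL180W) stood at 2283 and 2156 FPKM and RPL17B (YJL177W) at 1232 and 1150.4 FPKM. The summed levels of these tunnel proteins were 1995 ± 69.6 FPKM for RPL4 and 3411 ± 147 FPKM for RPL17, and the copies of RPL4 share 72.7% of windows against 0.198% for RPL17.

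Rpl11 sits with Rpl5 and 5S rRNA in the central part of the subunit that faces the tRNAs. RPL11A (YPR102C) stood at 1245 and 1070.1 FPKM and RPL11B (YGR085C) at 872 and 753 FPKM. Their sum was 1970 ± 208 FPKM, below the 3351 ± 59.1 FPKM of RPL5, its partner in the 5S particle, in both replicates. Per window found once, the RPL11 sum was 5561 and RPL5 3546 on the same scale, so the order of these partners turns with the denominator. Rpl1 forms the stalk at the site where tRNA leaves, and Rpl12 lies at the base of the stalk that calls in elongation factors. RPL1A (YPL220W, chromosome XVI, 135790 to 136443) stood at 859 and 755 FPKM and RPL1B (YGL135W, chromosome VII, 254641 to 255294) at 1217 and 1121 FPKM, the copies that differ at 4 bases in all. They rest on 19137 and 17473 counts for RPL1A in replicates 1 and 2 and 27097 and 25933 counts for RPL1B, so the B copy was higher in both. RPL12A (YEL054C, chromosome V, 52721 to 53218) stood at 478 and 423 FPKM and RPL12B (YDR418W, chromosome IV, 1301616 to 1302113) at 727 and 719 FPKM, the lowest sum of all at 1174 ± 44.6 FPKM. Only 37.6% of RPL12A and 10.2% of RPL12B is free of other reading frames, which leaves 51 bases of RPL12B. If only reads from free bases had been counted, the sum would be 8259 on the same scale, the third highest.

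Rpl7, Rpl9 and Rpl16 also have bacterial relatives. RPL7A (YGL076C, chromosome VII, 364335 to 365996) stood at 1531 and 1437 FPKM, from 38308 and 37344 counts. RPL7B (YPL198W, chromosome XVI, 173152 to 174702) was the lowest gene of all, at 74.1 and 69.2 FPKM from 1855 and 1799 counts, though still above the median of all genes. The distance between these copies is far larger than that between replicates. RPL9A (YGL147C) stood at 1849.7 and 1665 FPKM and RPL9B (YNL067W) at 588 and 539 FPKM. RPL16A (YIL133C) stood at 1290.5 and 1151 FPKM and RPL16B (YNL069C) at 2088 and 2025 FPKM, so the A copy was higher for RPL9 and the B copy for RPL16. RPL16 is the pair with the most different copies, with 78 mismatches and 19 residue differences.

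The other 9 proteins are found in eukaryotes and have no bacterial relative. Rpl19 reaches across to the small subunit and forms a bridge between the subunits. RPL19A (YBR084C-A) stood at 1989 and 1848 FPKM and RPL19B (YBL027W, chromosome II, 168423 to 169376) at 2971 and 2788 FPKM, the highest sum at 4798 ± 229 FPKM. RPL20A (YMR242C) stood at 2180 and 2029 FPKM and RPL20B (YOR312C) at 2427 and 2274 FPKM, a near-even pair whose B copy was nevertheless higher in both replicates. RPL21A (YBR191W) stood at 2329 and 2233 FPKM and RPL21B (YPL079W) at 1676 and 1544 FPKM. In these 3 pairs both copies are high, with all 6 genes above RPL10 in each library, as were both copies of RPL2. If only reads from free bases had been counted, RPL10 would stand at 3865 on the same scale, above all 6.

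RPL15A (YLR029C, chromosome XII, 201976 to 202590) was the highest of the 39 genes, at 3805 and 3887 FPKM from 79674 and 84551 counts. Its copy RPL15B (YMR121C, chromosome XIII, 509734 to 510348) stood at 93.4 and 91.2 FPKM from 1956 and 1983 counts, on a coding sequence that is 93.2% identical and of which 11.8% of windows are shared. RPL15A alone, with its 3846 ± 58.5 FPKM, was above each single-copy gene. This rank holds per coding base. Per free base RPL3 would stand at 12117, RPL12B at 7058, RPL8B at 6546 and RPL10 at 3865 on the same scale, all above RPL15A. RPL13A (YDL082W) stood at 1257 and 1159 FPKM and RPL13B (YMR142C) at 2508 and 2284 FPKM, here with the B copy higher. RPL14A (YKL006W) stood at 1642 and 1564 FPKM and RPL14B (YHL001W) at 553 and 516 FPKM, the shortest members at 417 coding bases.

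RPL6A (YML073C) stood at 1192 and 1001 FPKM and RPL6B (YLR448W) at 849 and 795 FPKM, and RPL6A had the widest gap between replicates of all members on the log2 scale. RPL8A (YHL033C) stood at 898 and 902 FPKM and RPL8B (YLL045C) at 1032 and 972 FPKM, a near-even pair like RPL20. Of RPL8A 44.8% and of RPL8B 15.3% is free of other frames. If only reads from free bases had been counted, their near-even levels would become a ratio of 3.26 in favour of RPL8B. Rpl8 takes part in early assembly of the subunit, and its sum of 1902 ± 39.7 FPKM lay among the lowest 4. Over the proteins with no bacterial relative the median sum was 3604 ± 227 FPKM, against 2158 ± 108 FPKM over the 12 with one, a grouping made after the values were seen. Of the 12, 5 are near-identical pairs and of the 9, 1 is. Overlap with other frames touches RPL3, RPL7, RPL10 and RPL12 among the 12. Among the 9 it touches RPL8, RPL15 and, slightly, RPL21. The part of this overlap in the gap was not tested. Over the pairs and genes with up to 20% shared windows the medians were 3748 FPKM for 8 proteins and 3123 FPKM for 7.

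**Figure D3:**
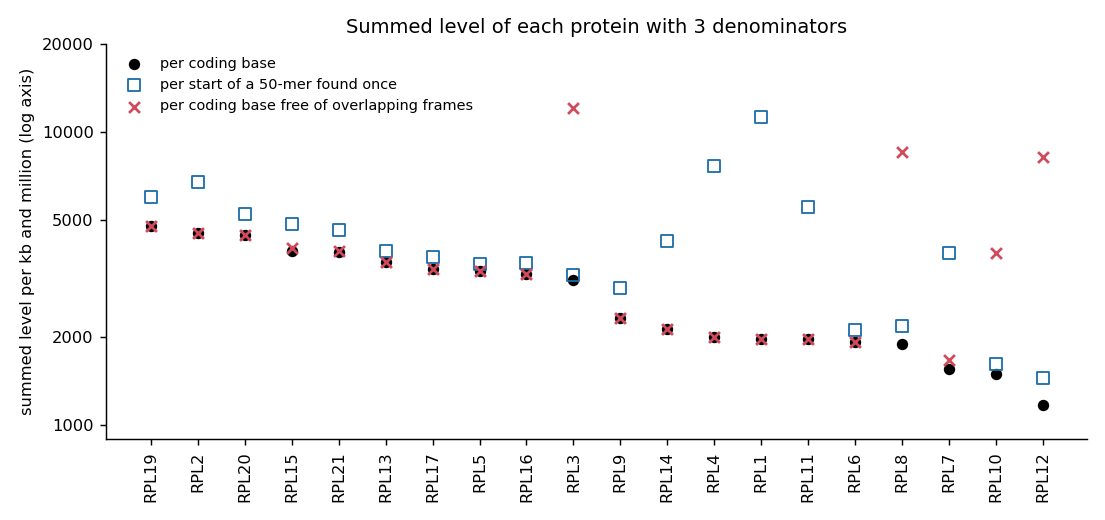
Summed level of the proteins shown with 3 denominators on a log axis: all coding bases (circles), starts of 50-base windows found once (squares) and coding bases free of other reading frames (crosses), in the order of the sums per coding base. The counts are those of whole genes in each case. RPL1, RPL4 and RPL11 rise to 11239, 7651 and 5561 with the second denominator, and RPL3, RPL8 and RPL12 to 12117, 8557 and 8259 with the third.

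The division of a pair between its copies differed little between replicates. The A copy was the higher in 10 pairs and the B copy in 8, and in 0 of 18 pairs did the replicates disagree on which. The share of the A copy in the summed FPKM moved by a median of 0.472 percentage points between replicates, and by 2.68 points at most, for RPL6. The 95% Wilson intervals of this share, which cover counting error only, overlapped between replicates in 9 of 18 pairs. The median share of the higher copy was 62.2%.

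The pairs fell between near-even and almost one-sided. In 7 pairs the higher copy was less than 1.5 times the lower, from 1.11 for RPL8 and 1.12 for RPL20 to 1.45 for RPL1. In 6 pairs the ratio lay between 1.5 and 2.5, RPL19 at 1.501 and RPL4 at 1.99 being the ends. In 5 pairs it was over 2.5 per coding base, and in all of these the A copy was the higher. Among these 5 are RPL15 at 41.7, RPL7 at 20.7, RPL9 at 3.12 and RPL14 at 2.999. The A share was 97.6% and 97.7% for RPL15 and 95.4% and 95.4% for RPL7 in replicates 1 and 2. At the other end it was 33.4% and 33.7% for RPL13, 38.2% and 36.2% for RPL16 and 39.7% and 37.1% for RPL12. RPL7B, RPL15B and both copies of RPL8 and RPL12 overlap other reading frames. Per free base the ratios would be 7.91 for RPL7 and 19.7 for RPL15. In favour of the B copy they would be 3.26 for RPL8 and 5.88 for RPL12. The rule that the A copy was higher in each pair over 2.5 thus depends on the denominator.

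**Figure D4:**
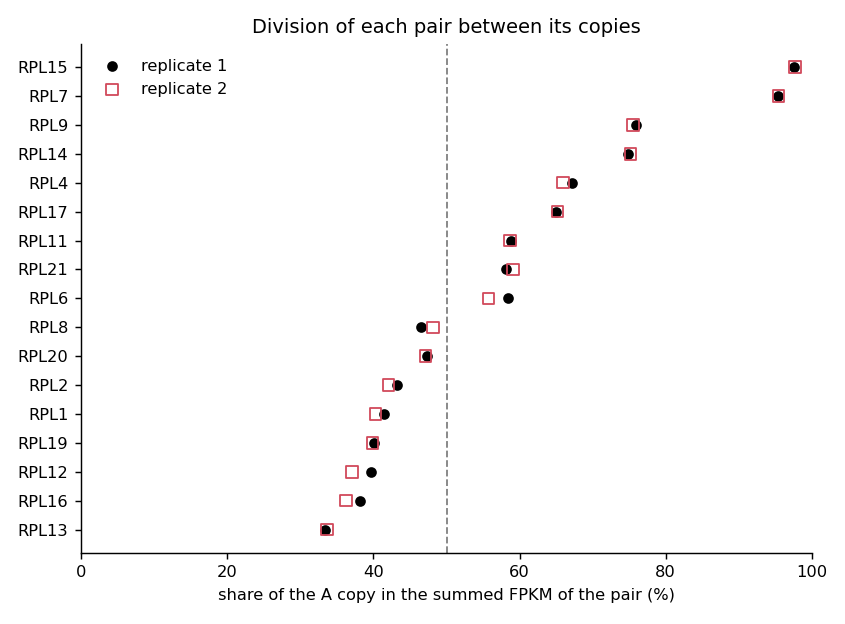
Share of the A copy in the summed FPKM of the pairs shown, in percent, with filled circles for replicate 1 and open squares for replicate 2; the dashed line marks 50%. The shares run from 33.4% for RPL13 to 97.6% for RPL15 in replicate 1, and no pair crosses the line between replicates.

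Over the 18 pairs, Spearman's rho between coding identity and the share of the higher copy was 0.034, given as a description since the points come from the same libraries. Over the 21 proteins, rho between the share of repeated windows and the summed level was -0.12.

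The genes lie on 14 chromosomes, 20 on the plus strand and 19 on the minus strand. No coding base of theirs lies within another gene of the RefSeq annotation used here. The annotation used for counting may differ, since 685 of the 6692 counted genes had no coding sequence in RefSeq. Overlap with all counted genes was therefore not settled. An intron within the coding sequence is present in 22 of the 39 genes, or 56.4%, against 4.69% of all genes with a coding length. There are 24 such introns of 147 to 506 bases, with RPL7A and RPL7B holding 2 each, and 11 of the 18 pairs have one in both copies. The 22 genes with an intron had a median of 1764 ± 94.1 FPKM and the 14 duplicated genes without one 856 ± 39.97 FPKM. Among the 14, the copies of RPL1, RPL4 and RPL11 are near-identical, and RPL8A, RPL8B, RPL12A, RPL12B and RPL15B overlap other reading frames. Among the 22, the copies of RPL2, RPL7 and RPL14 are near-identical and RPL7B overlaps such frames. The part of this in the gap was not tested. RPL15A, the highest gene, has no intron, and neither do RPL3, RPL5 and RPL10. The snoRNA genes SNR39 and SNR59 lie inside introns of RPL7A and RPL7B.

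The coding sequences lean on the codons that abundant yeast proteins use. The pooled share of AGA among arginine, GGT among glycine and TTG among leucine codons had a median of 85.7% over the 39 genes and 34.8% over all genes. All 39 were above 54.6%, the 90th percentile of all genes. RPL15B was lowest at 62.7%, while its copy RPL15A had 89.8%, and RPL8A was highest at 97.8%. RPL7A and RPL7B had the same share, 88.0%, in spite of their distance in level. The higher copy had the higher share in 8 pairs, the lower share in 7 and an equal share in 3. Over the 39 genes, rho between this share and FPKM was 0.0056.

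The region before the start codon was searched for motifs of factors known at ribosomal protein genes. The motif ACCCNNACA, a short form of the Rap1 site, was present on either strand within 500 bases in 14 of 39 genes, or 35.9%, against 5.48% of all genes. The form CCCATACA, with each base fixed, was present in 8, or 20.5%, against 1.90%. It overlapped a match to ACCCNNACA in each of these genes but RPL20A. There it began 361 bases before the start codon and ACCCNNACA 379. For Abf1, which takes the place of Rap1 at some of these genes, TCA and ACG with 6 bases between them were present in 20.5% against 22.7%, and a run of 8 A in 56.4% against 44.2%. Within 250 bases the shares were lower, with ACCCNNACA in 3 of 39 genes (7.69% against 2.51%), CCCATACA in 5.13% against 0.752%, the Abf1 motif in 5.13% against 12.9% and the run of A in 38.5% against 31.0%. A match is a description of letters and not a site shown to be bound. The 17 matches to ACCCNNACA began between 218 and 489 bases before the start codon. The 14 genes with a match had a median of 1543 FPKM and the 25 without one 1221 FPKM. Both copies had a match in 2 pairs (RPL13 and RPL20) and 1 copy in 10 pairs, where it was the higher copy in 7.

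RPL2B, RPL13A and RPL13B had 2 matches within 500 bases, and their stretches are shown because they hold the motifs in pairs. They come from the R64 assembly, 5′ to 3′ on the coding strand, with the matches in capitals, and a match on the other strand appears as TGTATGGGT. They lie 434 to 366 bases before the start codon for RPL2B (chrIX:316334-316402, plus strand), 301 to 190 for RPL13A (chrIV:308123-308234, plus strand) and 442 to 303 for RPL13B (chrXIII:551510-551649, minus strand).
RPL2B: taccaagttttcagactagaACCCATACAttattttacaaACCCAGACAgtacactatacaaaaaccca
RPL13A: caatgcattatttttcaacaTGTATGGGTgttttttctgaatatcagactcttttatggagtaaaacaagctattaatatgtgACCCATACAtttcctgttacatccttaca
RPL13B: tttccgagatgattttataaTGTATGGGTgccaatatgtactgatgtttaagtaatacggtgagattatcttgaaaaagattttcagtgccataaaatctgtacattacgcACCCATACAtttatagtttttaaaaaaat
The RPL13 copies both carry 1 match on each strand but at other distances from each other, and the bases around the matches differ. RPL2B and RPL13B were the higher copies of their pairs, and RPL13A was the lower copy of its pair. Over the 250 bases before the start codon the copies of a pair were 40.3% to 48.5% identical, with a median of 44.7%, against a median of 43.4% over 723 pairs of genes from different families. By this measure the copies were little more alike before the start codon than genes of different families.

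The replicates ranked the 39 genes nearly alike, with a Spearman rho of 0.998. As a group they were lower in replicate 2. This was so for 35 of 39, against 57.1% of all genes, and 33 of 39 lay below the median difference of all genes, -0.03 on the log2(FPKM+1) scale. The median difference, replicate 2 minus replicate 1, was -0.09 over the 39 genes and ran from -0.25 for RPL6A to 0.12 for RPL4B. Only RPL4A, RPL4B, RPL8A and RPL15A were higher in replicate 2, and with TMM or DESeq2 scaling 6 genes were, while 33 of 39 stayed the number below the median of all genes. All these differences are small: 0 of 39 genes were over 0.32 apart on this scale, against 11.7% of all genes. They exceeded 2 counting standard errors in 36 of 39 genes, against 53.3% of all genes. Taken from the median difference of all genes, they did so in 33 of 39, against 52.4%. The counting error falls as the count rises, and these genes have high counts.

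**Figure D5:**
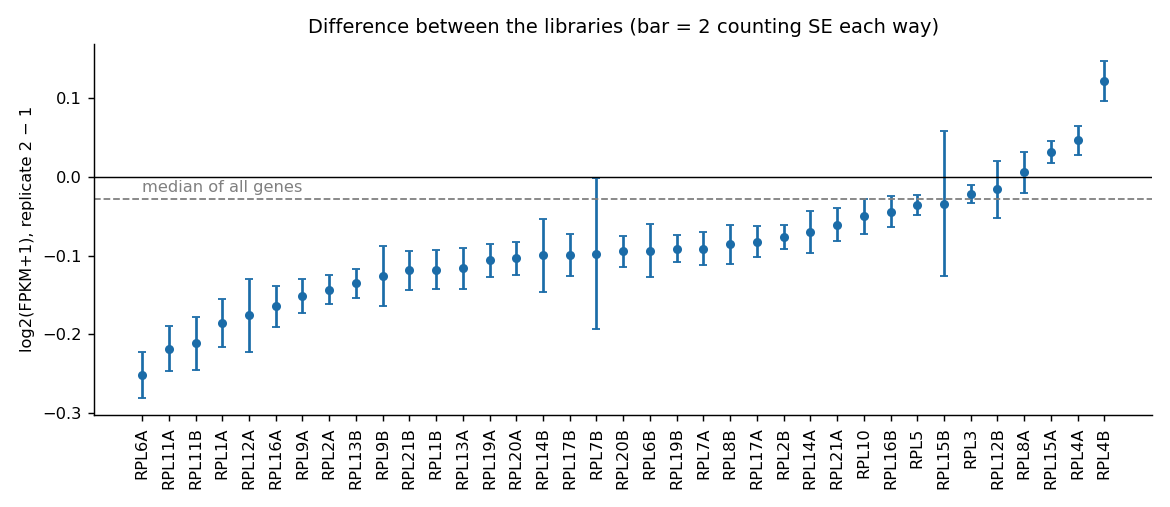
Difference in log2(FPKM+1) between replicate 2 and replicate 1 for the genes, ordered from lowest to highest, with bars of 2 counting standard errors each way; the dashed line is the median of all genes at -0.03. Most genes lie near the group's median of -0.09, from RPL6A at -0.25 to RPL4B at 0.12.

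The copies of a pair had the same sign of difference in 16 of 18 pairs. Since 32 of the 36 copies were lower in replicate 2, most pairs would share a sign without any link between copies. RPL8 and RPL15 were the exceptions, with 0.01 for RPL8A and -0.09 for RPL8B, and 0.03 for RPL15A and -0.03 for RPL15B. The difference between the copies had a median size of 0.06 and reached 0.16 on the log2 scale. Summed, 2 of 21 proteins were higher in replicate 2, RPL4 and RPL15. The other ribosomal protein genes, listed by name, showed the same direction. The median difference was -0.12 over the 42 large-subunit genes from RPL22 to RPL43 with the stalk genes and -0.11 over the 56 small-subunit genes.

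In level, those 42 genes had a median of 1970 FPKM and the 56 small-subunit genes 2020 FPKM, both above the 1327.6 FPKM of the genes described here. For the 16 other single-copy ribosomal protein genes the median was 3206 FPKM, near the 3123 FPKM of the 3 single-copy genes RPL3, RPL5 and RPL10. They ran from RPL39 at 4.60 FPKM to RPS31 at 8130 FPKM, and how far shared or overlapping sequence sets these values was not tested.

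The factors that act on these genes and proteins had far lower medians. Over the 10 regulators the median was 18.4 FPKM, with 1 of 10 above that of all genes. HMO1, an architectural protein found at many ribosomal protein promoters, was highest at 351 ± 23.4 FPKM. The kinase SCH9 at 45.0 ± 7.75 FPKM and the activator SFP1 at 34.9 ± 0.434 FPKM came next. The cofactor IFH1 at 6.73 ± 1.17 FPKM and the kinase TOR2 at 9.72 ± 0.241 FPKM were lowest.

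The 4 chaperones that each take care of a member stood between 16.7 and 104 FPKM. RRB1, the chaperone of Rpl3, stood at 119.5 and 88.1 FPKM, ACL4, that of Rpl4, at 77.7 and 63.3 FPKM, and SQT1, that of Rpl10, at 74.6 and 53.5 FPKM. SYO1, which carries Rpl5 and Rpl11 into the nucleus together, was lowest at 21.7 and 11.8 FPKM. All 4 were lower in replicate 2, a direction that 57.1% of all genes shared. The median difference of the 4 chaperones was -0.45, against -0.03 over all genes. Of the genes for the proteins they bind, RPL3, RPL5 and RPL10 differed by -0.02, -0.04 and -0.05, RPL11A and RPL11B by -0.22 and -0.21, and RPL4A and RPL4B by 0.05 and 0.12. Their differences thus went in both directions.

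The 5 factors of the last cytoplasmic steps, around the arrival of Rpl10, were also lower in replicate 2, as were 57.1% of all genes. The median difference of these 5 was -0.30, against -0.03 over all genes. TIF6, which keeps the subunits apart until the end of maturation, stood at 256 ± 37.9 FPKM. The export adaptor NMD3 stood at 106 ± 28.6 FPKM and the GTPase LSG1, which releases it, at 34.5 ± 7.87 FPKM. SDO1 and EFL1, which together remove Tif6, stood at 47.3 ± 3.51 FPKM and 23.8 ± 2.09 FPKM. What made the replicates differ in these genes was not tested.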

How the data were processed

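RNA-seq of 2 libraries of 1 group was used. The deposited values are counts per gene, although the authors name them FPKM: all are whole numbers and sum to 34052011 and 35367508. Per the labels, counting used featureCounts 2.0.3 on sacCer3. The sources used here do not give the annotation version, the strand setting or the handling of reads with several matches. The study calls its replicates biological, and no p-value was computed.

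FPKM was computed here as count over coding length in kb and over the library total, on the usual scale. Of 6692 genes, 6007 had an R64 (RefSeq) coding sequence, all multiples of 3 and so without untranslated regions. The other 685 held 0.281% and 0.292% of counts and stayed in the totals. Shared sequence was measured by 50-base windows and by blastn 2.17.0 (at least 50 bp at 98% identity), and overlap with reading frames of at least 100 codons. Motifs were searched in the 500 bases before the start codon, on both strands. Differences between replicates used log2(FPKM+1). Scaling factors, checked on simulated data, came from edgeR 4.0.16 (TMM) and from DESeq2 1.42.0, both run in R 4.3.3. Python 3.11.15 did the rest.

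The members, context lists and motifs were chosen with earlier results of these data known. The rule for named genes was the 39 genes, the 3 highest and 2 lowest of 10 regulators, all 4 chaperones and all 5 late factors, and other lists by their median, count or range. A gene and the results that need it are not reported here. Of 2 genes of the genotype label, HIS3 had 18 and 15 counts and TRP1 none. A count of 0 allows up to 3 counts, or 0.0881 and 0.0848 CPM (counts scaled by the library total). Intervals cover counting error only, as reads carry no molecular identifiers.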

Additional observations from a re-analysis of the deposited data

How the results depend on the processing

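Scaling by TMM or DESeq2 size factors, or keeping only genes with at least 10 counts, moved no level, ratio or variation beyond 1 SD of the replicates. Under both scalings the median difference of all genes became 0.00 and that of the 39 genes -0.06, with 6 higher in replicate 2 in place of 4. The denominator moved more. Per coding base in no stretch that blastn calls shared, where RPL1 and RPL4 have too few bases left and drop out, the values were 1756 FPKM for the genes kept, 1683 FPKM for the duplicated copies, 3507 FPKM for the summed pairs, a ratio of 1.12, a variation of 91.4% over genes and a variation of 60.4% over proteins. Per start of a window found once, they were 2408 FPKM for all 39 genes, 3260.1 FPKM for the single-copy genes, 2351 FPKM for the duplicated copies, 4102 FPKM for the summed pairs, a ratio of 1.26, a variation of 62.3% over genes and a variation of 51.0% over proteins. Without division by length, they were 772 CPM for all 39 genes, 2996 CPM for the single-copy genes, 749 CPM for the duplicated copies, 1767 CPM for the summed pairs, a ratio of 0.590, a variation of 75.6% over genes and a variation of 45.8% over proteins. Over the gene span with introns, they were 1002 FPKM for all 39 genes, 880.1 FPKM for the duplicated copies, 1996 FPKM for the summed pairs, a ratio of 0.639, a variation of 70.9% over genes and a variation of 38.7% over proteins. Leaving out genes with over 20% of bases in such stretches (RPL1, RPL4, RPL7 and RPL14) gave 1610.2 FPKM for the genes kept, 1416 FPKM for the duplicated copies, 3344 FPKM for the summed pairs, a ratio of 1.07, a variation of 56.7% over genes and a variation of 36.04% over proteins, 3.36% of counts and 2 genes higher in replicate 2. Without the 10 genes of highest count, the 39 genes took 4.35% of the rest. Chosen after seeing the data, the bases free of other reading frames gave 1610.2 FPKM for all 39 genes, 3865 FPKM for the single-copy genes, 1543 FPKM for the duplicated copies, 3344 FPKM for the summed pairs, a variation of 101% over genes and a variation of 64.5% over proteins, with 65.8% as the median share of the higher copy. Leaving out pairs with over 20% of windows shared gave 1610.2 FPKM for the genes kept, 3344 FPKM for the summed pairs, a ratio of 1.07 and a variation of 35.4% over proteins. So the level of the sums against single-copy genes, on either side of 1, depends on the denominator. In contrast, genes varied more than proteins in each setting above that gave both values. The A copy was the higher in 10 pairs where all pairs were kept. It was the higher in 9 without RPL1 and RPL4, and in 7 without RPL7 and RPL14 as well.

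Each replicate alone gave 1306 to 1349 FPKM for the 39 genes, 3099 to 3147 for single-copy genes, 1155 to 1274 for copies, 2535 to 2736 for sums, a ratio of 0.818 to 0.869, a variation of 59.4 to 61.5% over genes and 38.4 to 38.7% over proteins, and a share of 3.81 to 4.00% of counts. No paired analysis was possible because there is 1 group and no test. The depth is ample for these genes, the lowest of which had 1799 counts, so counting error is small beside the moves with the denominator.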
